A study of Arabidopsis thaliana with 6 samples.

Results

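The xyloglucan endotransglucosylase/hydrolase (XTH) family of Arabidopsis thaliana was followed in seedling shoots of the myc2 mutant and of the wild-type accession Col-0. The members were taken by gene identifier, XTH1 to XTH33, so that 33 of the 28775 genes in the count files belonged to the family. No measured value decided which genes are members, but the family was chosen with earlier results of these data known. The family was counted in 6 RNA-seq libraries of poly(A) RNA, 3 from myc2 and 3 from Col-0. Both genotypes were kept at 22 °C in days of 16 h light and 8 h dark, without a further treatment named in the labels, and the aerial parts of 2-week-old seedlings were frozen. The comparison asks which transcripts differ in shoots when MYC2, the bHLH-type regulator of jasmonate signalling, is mutated. Not given in the sources used here were the myc2 allele and how many plants each library pooled.

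Xyloglucan is the main hemicellulose that coats and links cellulose in the primary wall of eudicots such as Arabidopsis. XTH enzymes cut a xyloglucan backbone and join the new end to another xyloglucan chain, or in some members to water, and the family is known for its part in loosening and rebuilding the wall of growing cells. The members are sorted by sequence into group 1 (XTH1 to XTH11), group 2 (XTH12 to XTH26) and group 3 (XTH27 to XTH33), and XTH31 and XTH32 of group 3 belong to the branch linked to hydrolysis of xyloglucan. Several members are known by the stimulus that raises them, among them XTH22, first described as the touch-induced and brassinosteroid-induced gene TCH4.

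MYC2 transcripts gave the check of the genotype labels. MYC2 had 1822, 2007 and 1864 reads in the myc2 libraries and 4808, 4085 and 5087 reads in the Col-0 libraries, a 2.70-fold lower level in myc2 (edgeR adjusted p = 2.94e-08), so reads over the gene remained in the mutant. Totals ranged from 21165967 to 30604815 reads per library, and 1 read was worth 0.0344 to 0.0482 CPM, the read count scaled by the library total after TMM adjustment. The name in the header of each deposited count file begins with a prefix. All 3 myc2 libraries shared 1 prefix, Col-0 replicates 1 and 2 shared another, and Col-0 replicate 3 had yet another. What the prefix stands for is not stated, and libraries with the same prefix are called a run here. Genotype and run in this sense cannot be told apart. Col-0 replicate 3 stood apart from the other Col-0 replicates, with a chi-square per degree of freedom of 16.5 and 20.1 against 4.62 between those replicates, and it was therefore also treated as a group of its own. In that edgeR fit with 3 run groups, the spread came from the myc2 libraries and Col-0 replicates 1 and 2 only. The lone Col-0 replicate 3 was assumed to vary like them, so that its p-values rest on that assumption. MYC2 itself was 2.82-fold lower in myc2 against Col-0 replicates 1 and 2 and 2.46-fold lower against replicate 3. Its level also differed within Col-0, with a log2 fold change of -0.2 for replicate 3 over replicates 1 and 2. In this fit 15.6% of all tested genes (2950) and 0 of the 23 tested XTH members differed between the Col-0 runs. Photosynthesis transcripts dominated the marker lists: 7 shoot markers summed to 46700 to 48300 CPM in myc2 and 50000 to 58300 CPM in Col-0, with 0 called higher and 3 called lower (RBCS1A, RBCS2B and LHCB5), of which RBCS1A kept its call in 2 and LHCB5 in 3 of the 6 fits that left out 1 library. The 11 root markers summed to 526 to 539 CPM in myc2 and 280 to 300 CPM in Col-0, and PYK10, SCR and SHR rose in myc2, while the remaining 8 summed to 0.227 to 0.988 CPM in myc2 and 0.555 to 0.654 CPM in Col-0, and the root hair genes EXPA18 and RHD6 and the iron transporter gene IRT1 were at 0 reads. The SHR call held in 2 of the 6 fits that left out 1 library, and neither SCR nor SHR passed against the lone Col-0 replicate 3 (edgeR adjusted p = 0.07 and 0.102). The 5 flower markers summed to 1.79 to 3.18 CPM in myc2 and 1.93 to 3.37 CPM in Col-0, and none of the 3 tested was called. The part of cell composition in the results below was not tested, and in whole shoots fewer cells of a type and less RNA per cell cannot be told apart.

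The family moved in both directions. Of the 33 members, 23 had enough reads to be tested, and 15 of these differed between myc2 and Col-0 at an edgeR adjusted p under 0.05, which 36.3% of all 18961 tested genes also did. Higher levels in myc2 were found for 6 members (26.1%), namely XTH4, XTH6, XTH8, XTH15, XTH16 and XTH24, beside 17.6% of all tested genes. Lower levels were found for 9 members (39.1%), namely XTH17, XTH18, XTH19, XTH22, XTH23, XTH27, XTH31, XTH32 and XTH33, beside 18.7% of all tested genes. With a change of at least 1.5-fold, 3 members were higher (background 7.37%) and 5 were lower (background 7.69%). The libraries of the genotypes did not overlap for 19 of the 23 tested members, beside 49.7% of all tested genes. The median log2 fold change of myc2 over Col-0 was -0.17 for the tested members and 0.01 for all tested genes.

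Among the 8 tested members of group 1, 3 rose and 0 fell (37.5% called), with a median log2 fold change of 0.39. This share was near that of all tested genes, of which 36.3% were called, 17.6% higher and 18.7% lower. In group 2, 3 of 9 rose and 5 fell (88.9% called), with a median of -0.81 and a range of -3.19 to 0.95. In group 3, 0 of 6 rose and 4 fell (66.7% called), with a median of -0.32. Set against only Col-0 replicates 1 and 2, the family had 7 members higher and 9 lower and a median of -0.06. In that fit 8376 of the 18961 tested genes were called in either direction, beside 6889 with all Col-0 libraries as 1 group. Set against only Col-0 replicate 3, a lone library assumed to vary like the others, the family had a median of -0.25. The difference between the groups was not tested, since the members of a group share ancestry and are not replicates.

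**Figure D1:**
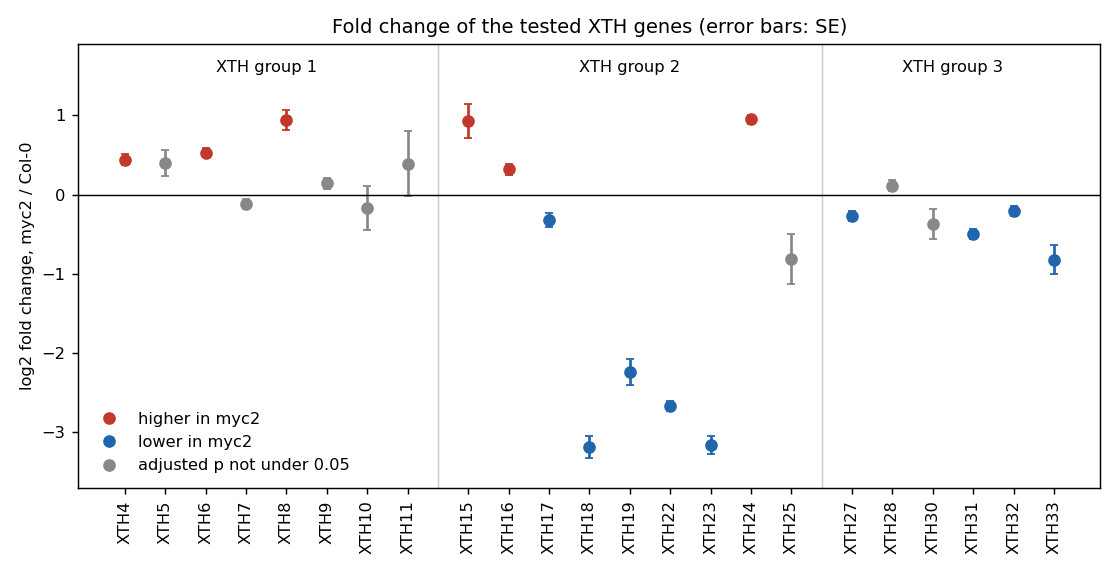
Log2 fold change (myc2 over Col-0, vertical axis) of the 23 tested XTH genes, ordered by number within the 3 sequence groups on the horizontal axis. Points are edgeR estimates and bars are standard errors, with red for higher in myc2, blue for lower in myc2 and grey for an adjusted p not under 0.05. The values below -2 all belong to group 2 (XTH18, XTH19, XTH22 and XTH23), and no called member of group 1 lies below 0.

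XTH22 (AT5G57560, TCH4) and XTH23 (AT4G25810, known as XTR6) were close relatives that both fell strongly. They share 82.4% of aligned coding bases and are each other's nearest relative in the family. XTH22 had 44.5, 45.6 and 46.6 CPM in myc2, against 278, 302 and 292 CPM in Col-0. All myc2 libraries lay far below all Col-0 libraries, and the level was 6.38-fold lower in myc2 (log2 fold change -2.67, SE 0.0624, edgeR adjusted p = 8.13e-11). XTH23 had 2.88, 2.93 and 2.67 CPM in myc2, against 22.7, 25.4 and 27.6 CPM in Col-0. The gap was again wide, with an 8.92-fold lower level in myc2 (log2 fold change -3.16, SE 0.118, edgeR adjusted p = 3.12e-09).

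Both changes were about as large against either Col-0 run. XTH22 was 6.37-fold lower when set against Col-0 replicates 1 and 2 and 6.41-fold lower when set against replicate 3, and XTH23 was 8.48-fold and 9.74-fold lower in the same order. Among all 18961 tested genes, XTH23 ranked 55 and XTH22 ranked 93 from the lowest fold change. XTH22 gave 15.5, 15.6 and 17.5 reads per XTH23 read in myc2 and 12.3, 11.9 and 10.6 in Col-0, and this ratio was higher in every myc2 library than in any Col-0 library.

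The 100 bases just before the annotated starts of XTH22, of XTH23 and of XTH24, which rose and is described below, are shown because these genes differ in direction or in size of change. They run 5′ to 3′ on the strand of the gene, up to the base before the annotated start in TAIR10.1. The windows are chr5:23308681-23308780 (minus strand), chr4:13128294-13128393 (plus strand) and chr4:14820596-14820695 (minus strand). Capitals mark the only match to any of the 5 searched motifs listed further on, a CGTGTG beginning 94 bases before the start of XTH23.
XTH22: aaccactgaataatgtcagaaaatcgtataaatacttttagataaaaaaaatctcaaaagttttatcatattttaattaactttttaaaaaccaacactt
XTH23: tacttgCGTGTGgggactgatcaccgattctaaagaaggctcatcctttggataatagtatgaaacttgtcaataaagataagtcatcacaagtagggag
XTH24: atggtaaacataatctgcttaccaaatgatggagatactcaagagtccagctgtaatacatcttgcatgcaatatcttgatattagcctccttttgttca

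XTH17, XTH18, XTH19 and XTH20 form a branch of group 2 that is best known from roots, and 3 of its members were tested in these shoots. XTH18 (AT4G30280) had 2.08, 2.97 and 2.21 CPM in myc2, against 21.4, 20.9 and 24.2 CPM in Col-0. The genotypes were widely separated, with a 9.15-fold lower level in myc2 (log2 fold change -3.19, SE 0.139, edgeR adjusted p = 1.04e-08), the most negative value in the family and rank 52 from the lowest among all tested genes. XTH19 (AT4G30290) had 1.78, 2.12 and 1.33 CPM in myc2, against 8.02, 8.24 and 8.53 CPM in Col-0. Every myc2 library was again below every Col-0 library, and the level was 4.72-fold lower in myc2 (log2 fold change -2.24, SE 0.161, edgeR adjusted p = 7.31e-07).

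XTH17 (AT1G65310) is the nearest relative of XTH18, with 92.2% identical coding bases, and its values are given for that reason, chosen after they were seen. XTH17 had 24.5, 22.3 and 21.6 CPM in myc2, against 27.5, 26.6 and 31.1 CPM in Col-0. The libraries did not overlap but lay close, with a 1.25-fold lower level in myc2 (log2 fold change -0.32, edgeR adjusted p = 0.0154). This call was lost without myc2 replicate 2 (adjusted p = 0.068) and without myc2 replicate 3 (adjusted p = 0.0816), both from edgeR. XTH17 gave 11.8, 7.52 and 9.76 reads per XTH18 read in myc2, against 1.29, 1.27 and 1.28 in Col-0. In Col-0 the pair was thus near equal in reads and nearly constant across libraries, and in myc2 XTH17 was the more abundant by a wide margin, a difference in log2 ratio of 2.90. XTH20 had 13 reads in myc2 and 6 in Col-0 over 3 libraries each and was not tested.

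**Figure D2:**
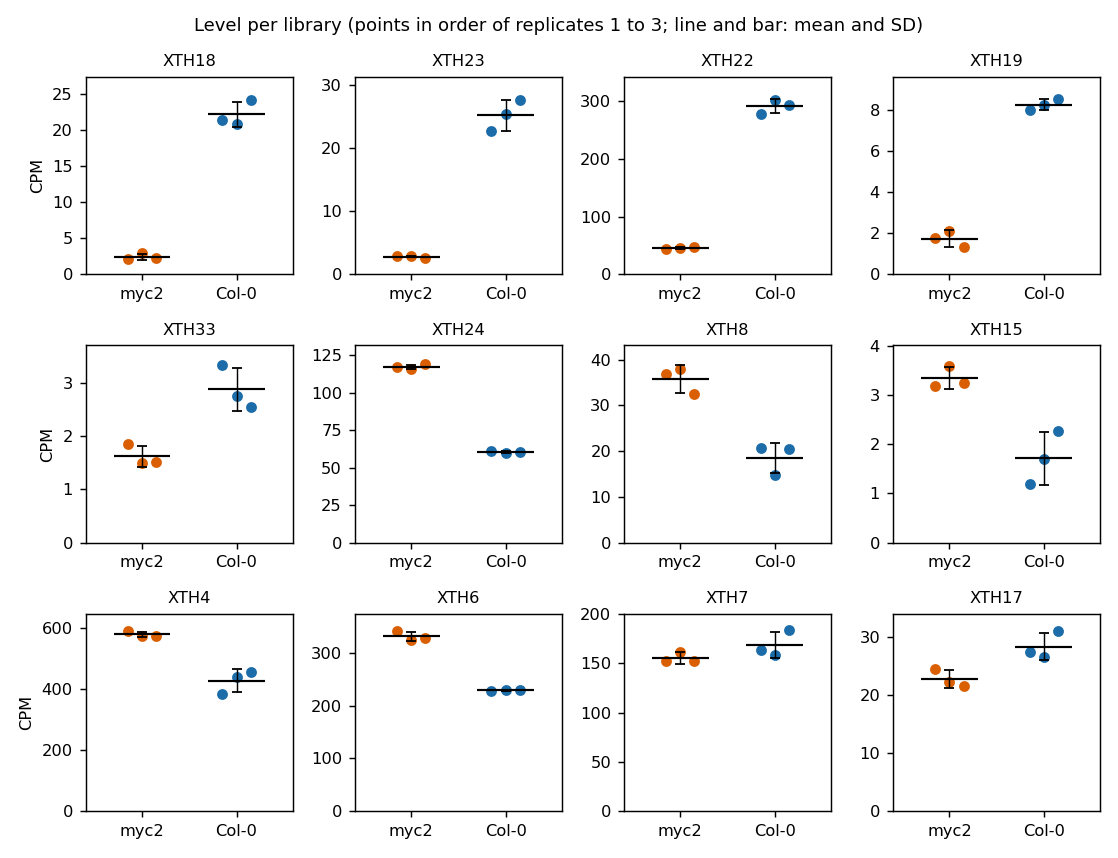
CPM (vertical axes, each starting at 0) of 12 XTH genes in each library, with myc2 left and Col-0 right. Points are libraries in the order of replicates 1 to 3, lines are means and bars are SD (n = 3). The genotypes do not overlap for XTH18, XTH23, XTH22, XTH19, XTH33, XTH24, XTH8, XTH15, XTH4, XTH6 and XTH17, while for XTH7 the highest myc2 library (162 CPM) exceeds the lowest Col-0 library (159 CPM).

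How well reads of such similar genes can be told apart bears on these values. In the stretch that holds the catalytic site, XTH17, XTH18 and XTH19 differ at 7 of 60 coding positions, given here in capitals for the 3 genes. The stretches lie within a coding exon of each gene at chr1:24257661-24257720 (plus strand), chr4:14826557-14826616 (minus strand) and chr4:14829549-14829608 (minus strand) of TAIR10.1.
XTH17: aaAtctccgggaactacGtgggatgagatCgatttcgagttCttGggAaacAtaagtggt
XTH18: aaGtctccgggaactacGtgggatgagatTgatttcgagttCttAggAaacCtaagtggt
XTH19: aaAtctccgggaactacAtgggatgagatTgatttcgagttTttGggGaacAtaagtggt

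Of all 50-base stretches of exon sequence, 0.182% in XTH17, 1.70% in XTH18 and 1.77% in XTH19 occurred elsewhere in the nuclear genome. At 150 bases, the length of a read in these libraries, the share was 0% for each of these genes. The study states a mapping-quality filter in SAMtools for public RNA-seq data that it reprocessed. Whether it was applied to these 6 libraries, and how the counter handled reads with several matches, is not stated.

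XTH17 and XTH18 also share their immediate upstream sequence, shown because the genes changed so unequally. The 100 bases before the annotated starts, chr1:24256954-24257053 (plus strand) and chr4:14827212-14827311 (minus strand), were identical at 87 of 100 positions, and at 79 of the 80 positions nearest the start. Capitals mark the 13 positions that differ.
XTH17: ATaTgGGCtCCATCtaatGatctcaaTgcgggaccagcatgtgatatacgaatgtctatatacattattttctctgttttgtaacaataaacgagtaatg
XTH18: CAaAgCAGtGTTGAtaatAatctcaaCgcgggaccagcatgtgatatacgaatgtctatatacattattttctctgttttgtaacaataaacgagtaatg
The single difference within the nearest 80 bases falls inside a CGCGTT match of XTH18, read on the opposite strand from 76 bases before the start, which XTH17 does not have. Both genes have a CACATG match, also on the opposite strand, beginning 63 bases before the start. Which sequence, if any, is tied to the unequal change was not tested.

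XTH24 (AT4G30270, known as MERI5) lies beside XTH18 and XTH19 and changed the other way. XTH24 had 117, 116 and 119 CPM in myc2, against 61.4, 60 and 60.4 CPM in Col-0. The libraries of each genotype were tightly grouped and far apart, with a 1.93-fold higher level in myc2 (log2 fold change 0.95, SE 0.0583, edgeR adjusted p = 1.94e-07), and the fold was 1.93 with Col-0 replicates 1 and 2 and 1.94 with replicate 3 as the only wild type.

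The family contains 4 tandem clusters, defined as members at most 10000 bp apart, which hold 11 of the 33 genes. XTH24, XTH18 and XTH19 lie in this order on the minus strand of chromosome 4 (TAIR10.1, from 14819192 to 14830224), with 5161 bp and 1500 bp between them. The log2 count ratio of XTH24 to XTH18 was 5.80, 5.28 and 5.73 in myc2 and 1.52, 1.52 and 1.32 in Col-0, a difference of 4.15. The ratio of XTH18 to XTH19 was 0.22, 0.48 and 0.72 in myc2 and 1.41, 1.34 and 1.5 in Col-0, a difference of -0.94. Neither ratio overlapped between the genotypes.

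XTH12, XTH13, XTH25 and XTH22 lie on the minus strand of chromosome 5 (from 23300321 to 23308680), and within this cluster XTH22 alone was well expressed. XTH12 had 1 read and XTH13 had 0 reads over the 6 libraries. XTH25 averaged 0.424 CPM in myc2 and 0.747 CPM in Col-0 (log2 fold change -0.81, SE 0.315, edgeR adjusted p = 0.0627) and did not pass. The log2 count ratio of XTH25 to XTH22 was -7.11, -6.43 and -6.61 in myc2 and -8.39, -8.76 and -8.56 in Col-0, a difference of 1.85. For each of these 3 neighbour ratios the two-sided exact permutation test gave p = 0.10 (0.10 after Benjamini-Hochberg adjustment over the 3 pairs), the smallest value that 3 libraries against 3 allow. XTH14, which begins 363 bp beyond XTH23 on chromosome 4, had 0 reads in every library, and so did the neighbours XTH1 and XTH2.

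**Figure D3:**
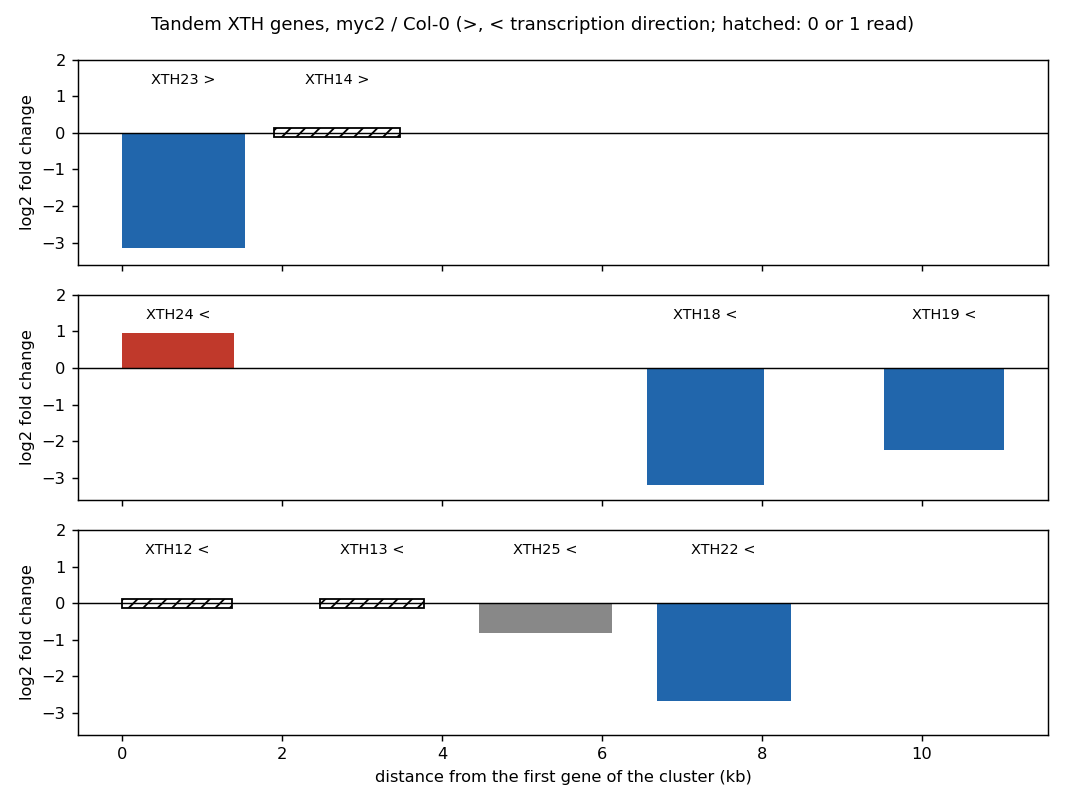
Log2 fold change (myc2 over Col-0, vertical axis) of XTH genes in the 3 tandem clusters with reads, drawn to scale by distance in kb from the first gene of each cluster (horizontal axis). Arrowheads give the direction of transcription, red and blue mark called genes, grey a gene that did not pass, and hatched boxes genes with 0 or 1 read over the 6 libraries. XTH24 stands above 0 at 0.95 while its neighbours XTH18 and XTH19 stand at -3.19 and -2.24.

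The 3 members with the highest level per length over all libraries, XTH4, XTH6 and XTH7, belonged to group 1, and none of them was called lower. Levels of different genes were compared as RPKM, the CPM per kilobase of exon. XTH4 (AT2G06850), a member expressed in stems and other elongating organs, had rank 1 in both genotypes with 359 ± 5.45 RPKM in myc2 and 264 ± 23.4 RPKM in Col-0 (SD, n = 3 each). XTH4 had 590, 574 and 576 CPM in myc2, against 385, 439 and 458 CPM in Col-0. The genotypes did not overlap, and the level was 1.36-fold higher in myc2 (log2 fold change 0.44, SE 0.0679, edgeR adjusted p = 3.68e-04).

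XTH6 (AT5G65730) had rank 2 in myc2 and rank 3 in Col-0 by RPKM, with 225 ± 5.81 RPKM in myc2 and 156 ± 1.07 RPKM in Col-0. XTH6 had 341, 324 and 328 CPM in myc2, against 227, 229 and 230 CPM in Col-0. The libraries were well apart, with a 1.45-fold higher level in myc2 (log2 fold change 0.53, SE 0.0538, edgeR adjusted p = 1.35e-05). Its nearest relative XTH7 (AT4G37800), with 74.0% identical coding bases, had 152, 162 and 152 CPM in myc2, against 164, 159 and 184 CPM in Col-0. These overlapped, and XTH7 did not pass (log2 fold change -0.12, edgeR adjusted p = 0.172), and against Col-0 replicate 3 alone, with the spread taken from the other libraries, the log2 fold change was -0.25 (adjusted p = 0.00178). XTH6 gave 2.24, 2.0 and 2.17 reads per XTH7 read in myc2, against 1.38, 1.44 and 1.25 in Col-0, without overlap.

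XTH8 (AT1G11545) had 36.9, 38.0 and 32.4 CPM in myc2, against 20.6, 14.8 and 20.4 CPM in Col-0. Col-0 replicate 2 was the lowest library, and no Col-0 library reached the myc2 range, for a 1.92-fold higher level in myc2 (log2 fold change 0.94, SE 0.121, edgeR adjusted p = 1.09e-04). The other tested members of group 1 did not pass. XTH9, a gene linked to stem and meristem growth, averaged 126 CPM in myc2 and 114 CPM in Col-0 (log2 fold change 0.14, edgeR adjusted p = 0.101), and it passed against Col-0 replicates 1 and 2 alone (log2 fold change 0.20, adjusted p = 0.00281). XTH5, the nearest relative of XTH4, had a log2 fold change of 0.40 (edgeR adjusted p = 0.082), close to that of XTH4. Its level was far lower, at 1.69 RPKM in myc2 and 1.29 RPKM in Col-0. XTH5 was called higher without myc2 replicate 1 (log2 fold change 0.52, edgeR adjusted p = 0.0473). XTH4 gave 220, 160 and 166 reads per XTH5 read in myc2, against 156, 168 and 196 in Col-0, and these ratios overlapped. XTH10 and XTH11 had 25 to 34 and 7 to 17 reads per library in myc2, against 21 to 49 and 6 to 13 in Col-0, with edgeR adjusted p of 0.658 and 0.491.

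XTH15 and XTH16 of group 2 share 81.7% of coding bases and both rose. XTH15 (AT4G14130, known as XTR7 and as a shade-induced gene) had 3.18, 3.59 and 3.24 CPM in myc2, against 1.19, 1.69 and 2.27 CPM in Col-0. The Col-0 libraries were spread over a wide range, with replicate 3 the highest, and all lay below myc2, for a 1.91-fold higher level in myc2 (log2 fold change 0.93, SE 0.211, edgeR adjusted p = 0.00471). Against Col-0 replicate 3 alone, with the spread taken from the other libraries, the log2 fold change was 0.55 (edgeR adjusted p = 0.0589). XTH15 overlaps AT4G14120 on the opposite strand by 382 bp, and that gene had 94, 80 and 131 reads in myc2 and 64, 50 and 89 in Col-0. Without a stated strand setting the reads of the overlap cannot be told apart. XTH16 (AT3G23730) averaged 41.6 CPM in myc2 and 33.3 CPM in Col-0 (log2 fold change 0.32, edgeR adjusted p = 0.00376).

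In group 3, XTH27, XTH31, XTH32 and XTH33 fell and XTH28 and XTH30 did not pass. XTH33 (AT1G10550), whose protein is known to sit at the plasma membrane, had 1.85, 1.5 and 1.52 CPM in myc2, against 3.33, 2.75 and 2.55 CPM in Col-0. The ranges did not overlap, and the level was 1.76-fold lower in myc2 (log2 fold change -0.82, SE 0.185, edgeR adjusted p = 0.00483). XTH31 (AT3G44990), a hydrolase known from aluminium responses of roots, averaged 47.7 CPM in myc2 and 67.6 CPM in Col-0 (log2 fold change -0.50, edgeR adjusted p = 1.01e-04). XTH32, from the same branch, had a log2 fold change of -0.21 (edgeR adjusted p = 0.0202), and this call was lost when any of the 3 myc2 libraries was left out (adjusted p of 0.0621, 0.0859 and 0.0803).

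XTH27, a gene known from vascular tissue of leaves, had 97.3, 89.4 and 93.4 CPM in myc2, against 120, 111 and 108 CPM in Col-0, and fell slightly (log2 fold change -0.27, edgeR adjusted p = 0.00667). Its nearest relative XTH28, known from stamen filaments, did not pass (log2 fold change 0.11, edgeR adjusted p = 0.262). XTH27 gave 2.36, 2.33 and 2.35 reads per XTH28 read in myc2, against 3.36, 2.97 and 2.85 in Col-0, without overlap. Over the 7 pairs of nearest relatives with both members tested, this ratio did not overlap between the genotypes in 6 and overlapped in 1, XTH4 and XTH5. The same count over other gene pairs was not made, so this count has no background. As single genes, 49.7% of all tested genes did not overlap between the genotypes. XTH30 did not pass (log2 fold change -0.37, edgeR adjusted p = 0.16), but it was called lower without Col-0 replicate 2 (log2 fold change -0.55, edgeR adjusted p = 0.0357).

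The remaining 10 members were at or near the limit of detection. XTH1, XTH2, XTH13, XTH14, XTH21 and XTH26 had 0 reads in all 6 libraries, which allows a level of up to 0.103 to 0.145 CPM per library (3 reads, counting error only). XTH21 and XTH26 are genes known from roots, XTH26 from root hairs. XTH3 and XTH12 had 1 read each over the 6 libraries. XTH20 had 19 reads and XTH29 had 25 reads over the 6 libraries, and neither was tested.

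The family total did not separate the genotypes, while its make-up did. Summed over the 33 members, RPKM was 1200, 1170 and 1170 in myc2 and 1140, 1180 and 1230 in Col-0, and the ranges overlapped. XTH22 held 2.33% to 2.50% of this sum in myc2, against 15.0% to 16.1% in Col-0, and its rank by RPKM was 11 in myc2 and 2 in Col-0. XTH4 held 30.4% to 30.5% in myc2, against 21% to 23.1% in Col-0. XTH6 held 18.8% to 19.3% in myc2, against 12.8% to 13.6% in Col-0, and XTH24 held 8.05% to 8.36% in myc2, against 4.07% to 4.47% in Col-0. Group 1 made up 69.0% to 69.7% of the sum in myc2, against 53.7% to 55.6% in Col-0. Group 2 made up 15.7% to 15.9% in myc2, against 27.2% to 28.2% in Col-0, and group 3 made up 14.5% to 15.0% in myc2, against 17.1% to 18.4% in Col-0. None of these shares overlapped between the genotypes. Shares of a sum are not independent of each other. With all other levels unchanged, a lower level of XTH22 alone would raise the share of every other member.

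**Figure D4:**
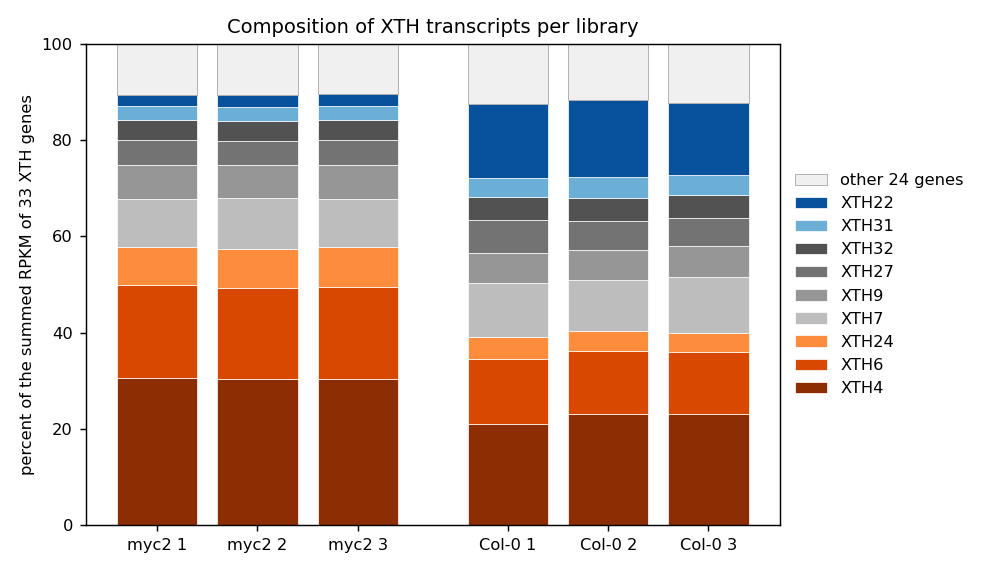
Percent of the summed RPKM of the 33 XTH genes (vertical axis) held by 9 members and by the other 24 together, in each of the 6 libraries (horizontal axis, myc2 left, Col-0 right). Stacks reach 100%. XTH22 (dark blue, just below the pale top band of the other 24) narrows to 2.33% to 2.50% in myc2, against 15.0% to 16.1% in Col-0. XTH4 (lowest band) is wider in myc2.

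Promoters were searched for short motifs because MYC2 is known to bind the G-box CACGTG and variants of it. The window ran from 250 bases before to 50 after the annotated start of all 27443 protein-coding genes with a full window, both strands were read, and all 33 members had a window. CACGTG occurred in 0 of 33 XTH windows, beside 7.68% of all promoters. CACATG, a known MYC2-bound variant, occurred in 5 of 33 (15.2%), those of XTH17, XTH18, XTH25, XTH26 and XTH33, beside 12.9%. Among the 5 members that fell at least 1.5-fold, XTH18 and XTH33 had it.

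The brassinosteroid-response elements CGTGTG and CGTGCG, bound by BZR1-type factors, occurred in 4 of 33 windows (XTH2, XTH8, XTH23 and XTH25, beside 6.52%) and in 0 of 33 (beside 1.96%). CGCGTT, known as a binding site of calmodulin-binding transcription activators, occurred in 3 of 33 (XTH13, XTH18 and XTH20, beside 3.40%). CACGTG can overlap CGTGTG and CGTGCG by shared letters. A match is only a description of letters in this window, and a window without a match says nothing on binding elsewhere. For XTH22 the annotated start lies 445 bp from the start codon along the gene, and for XTH23 300 bp.

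The enzymes that make and trim xyloglucan were read from a fixed list of 21 genes, of which 20 were tested. In myc2, 2 rose (10%) and 6 fell (30%), beside 17.6% and 18.7% of all tested genes, with a median log2 fold change of 0.02. CSLC4, a glucan synthase of the xyloglucan backbone, had 36.1, 35.2 and 37.5 CPM in myc2, against 78.8, 81.9 and 87.7 CPM in Col-0. The genotypes were far apart, at a 2.28-fold lower level in myc2 (log2 fold change -1.19, SE 0.069, edgeR adjusted p = 1.15e-07). The other 4 CSLC genes did not pass.

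XXT1, a xylosyltransferase that adds the side-chain xylose, had 9.16, 9.41 and 8.88 CPM in myc2, against 24.6, 23.8 and 22.5 CPM in Col-0. No library overlapped, and the level was 2.58-fold lower in myc2 (log2 fold change -1.37, SE 0.0885, edgeR adjusted p = 2.98e-07), while its partner XXT2 and the other xylosyltransferases did not pass. None of the 3 tested genes for longer side chains passed in the main fit. XLT2 (log2 fold change 0.23, edgeR adjusted p = 0.0565) passed against Col-0 replicates 1 and 2 alone (log2 fold change 0.31, edgeR adjusted p = 0.0013). It also passed narrowly with no filter beyond 1 read and with 5 CPM in 3 libraries (edgeR adjusted p = 0.0499 and 0.0478). FUT1 had a log2 fold change of -0.27 (edgeR adjusted p = 0.0663), and of -0.40 against the lone Col-0 replicate 3. XUT1, with 1 read, was not tested.

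All 5 genes for the breakdown of xyloglucan oligosaccharides were called, 1 higher and 4 lower, beside 36.3% of all tested genes called, 17.6% higher and 18.7% lower. The beta-galactosidase gene BGAL10 had 30.6, 30.2 and 27.5 CPM in myc2, against 18.7, 19.0 and 18.5 CPM in Col-0. It rose 1.57-fold without overlap (log2 fold change 0.65, SE 0.0797, edgeR adjusted p = 6.49e-05). The 4 other breakdown genes fell, with log2 fold changes of -0.51 for the beta-glucosidase gene BGLC3, -0.40 for the fucosidase gene AXY8, -0.32 for the beta-glucosidase gene BGLC1 and -0.30 for the alpha-xylosidase gene XYL1 (edgeR adjusted p of 4.73e-04, 5.25e-04, 0.00359 and 0.00207). AXY4L, an acetyltransferase gene of xyloglucan, had 1.74, 2.27 and 1.87 CPM in myc2, against 1.07, 0.723 and 1.41 CPM in Col-0. It passed (log2 fold change 0.84, edgeR adjusted p = 0.0196), and the call was lost without myc2 replicate 2 (adjusted p = 0.0875), without Col-0 replicate 2 (adjusted p = 0.0678) and against the lone Col-0 replicate 3 (adjusted p = 0.204).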

How the data were processed

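The authors made TruSeq libraries from poly(A) RNA of 3 myc2 and 3 Col-0 shoot samples. The submitters' processing notes name fastp, HISAT2, SAMtools, StringTie and the TAIR10 genome. Not given in the sources used here were tool versions, the annotation release, the strand setting and the program that counted reads. The authors deposited whole-number read counts per gene and library, not normalized, and these counts entered every test. A deposited table of the authors' own comparison (fold changes, standard errors and p-values) was not used.

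Genes were kept with filterByExpr, scaled by TMM and fitted in edgeR 4.0.16 with its quasi-likelihood F-test (robust fit, genotype as the only term, R 4.3.3). P-values were adjusted by Benjamini-Hochberg over the 18961 genes tested, and genes under 0.05 are called. The standard error is the log2 fold change divided by the square root of F. The biological coefficient of variation was 8.44%. RPKM used TMM-scaled CPM and the summed exon length of RefSeq's TAIR10.1 annotation, from which coordinates, sequences and coding alignments were also taken. Groups and replicate numbers came from the labels. The study calls the replicates biological, but no source says that they came from separate cultures, so p-values measure only the spread between these samples, which may be technical. Scripts were tested on simulated data.

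The members, the marker and pathway lists and the tests were chosen with earlier results of these data known. By rule, values per library are given for members changed at least 1.5-fold and for the 3 with the highest level per length. The ratios of nearest relatives and the values of XTH17 and XTH27 were added after values were seen. As alternatives, scaling by RLE or by upper quartile was tried, as were DESeq2 1.42.0, voom (limma 3.58.1), no filter beyond 1 read, 5 CPM in 3 libraries, thinning to the smallest total, a replicate block, leaving out each library, and Col-0 split by run. In the split fit Col-0 replicate 3 has no replicate and adds nothing to the spread, and fits without a library leave that genotype with 2.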

Additional observations from a re-analysis of the deposited data

How the results depend on the processing

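Among 360 fits of single XTH members under the alternatives, 347 kept direction and side of the threshold, 6 lost the call, 5 gained one and 2 changed sign. Both changes of sign were those of XTH10, never called, at 0.16 against Col-0 replicates 1 and 2 and at 0.16 without Col-0 replicate 3, within a range of -0.36 to 0.16 over the libraries left out. The family counts stayed at 6 higher and 9 lower with RLE, upper-quartile scaling, DESeq2, limma-voom, no filter, thinning and the replicate block, and were 5 and 8 with the filter of 5 CPM. Against Col-0 replicates 1 and 2 alone the family median was -0.06, and against Col-0 replicate 3 alone the pathway genes called higher numbered 1 in place of 2. Leaving out 1 library gave 6 to 7 members higher, 7 to 10 lower, medians of -0.23 to -0.06 (-0.06 without Col-0 replicate 3), 1 to 3 pathway genes higher and 5032 to 8417 genes called in all. Replicate numbers did not pair the libraries, since deviations of same-numbered libraries correlated at -0.0249, -0.002 and 0.0229. With the replicate block, 6639 genes were called in place of 6889, and the family median was -0.15. By coding length, XTH4 had 651 RPKM in myc2 and 479 RPKM in Col-0, and XTH22 had 53.3 RPKM in myc2 and 340.0 RPKM in Col-0. Depth limits members with few reads, and XTH29, with 25 reads over the 6 libraries, was still not tested. Genotype cannot be separated from run, read from a header prefix whose meaning is not stated.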
